A study of Mus musculus with 10 samples.

Results

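The AP-1 subunits Jun, Junb, Jund, Fos, Fosb, Fosl1 and Fosl2, their relative Atf3, and the immediate early genes Egr1 and Ier2 were followed in lactating mammary glands of 2 inbred mouse strains. These 10 genes were taken by name, of 12393 genes measured, with every probeset whose platform annotation gave exactly 1 symbol equal to the gene. They had 12 probesets of 22626 other than controls, since Jun and Fosl1 had 2 each and the other genes 1. QSi5 mice, bred by full-sib mating from outbred Quackenbush-Swiss mice under selection for large litters and short intervals between them, were set against CBA mice (CBA/CaH), an inbred strain without that selection. Each strain gave 5 mice at lactation day 9 of a first lactation, with 1 array for the inguinal gland of each mouse, 3 per strain on the MOE430 2.0 chip (QSi5 replicates 3, 4 and 5 and CBA replicates 1, 4 and 5) and 2 per strain on the smaller MOE430A 2.0 chip. According to the methods this was the right gland, and according to the series record it was the fourth gland, after a weaning forced at that day, and no interval between weaning and collection is given. RNA came from pieces of whole gland, so that fewer cells of a type and less RNA per cell cannot be told apart.

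AP-1 is a dimer of leucine zipper proteins, in which a Jun protein pairs with another Jun, with a Fos protein or with a member of the ATF family, and which binds short palindromic DNA sites in promoters and enhancers. Genes such as Fos, Jun, Egr1 and Ier2 are called immediate early because growth factors, cytokines and stress switch on their transcription within minutes and without new protein synthesis, after which their transcripts decay quickly. Jund is transcribed more steadily than its relatives in many cells. In the mouse mammary gland, AP-1 subunits are known for an induction soon after weaning, when milk secretion stops and the gland begins to involute.

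The probeset levels are deposited log2 intensities from RMA, which corrects for background, equalises the distributions of the arrays and sums up the probes of a probeset, and a difference is QSi5 minus CBA on that log2 scale with limma's SE. A probeset was tested where the unlogged level, taken as the antilog of its mean log2 value, exceeded 20 in at least 1 strain, which held for 11412 probesets and 7361 genes. The threshold for a call was 0.05 on limma's p after Benjamini-Hochberg (BH) adjustment. Array medians lay between 4.21 and 4.30, and the median correlation of an array with the other 9 lay between 0.935 (CBA replicate 3) and 0.970, with CBA replicate 1, the highest mouse for Jun, Junb, Fos and Atf3, second lowest at 0.941. Of 12 milk protein and alveolar epithelial markers, all 12 passed the minimum, and their mean level relative to all mice lay between -0.09 and 0.08. That mean joins opposite calls. Krt8, for a keratin of luminal cells, was called lower in QSi5 (-0.83, SE 0.16, adjusted p = 0.0161). Xdh, for an enzyme of milk fat globule secretion, was called higher (0.73, SE 0.10, adjusted p = 0.00108). The other 10 were not called, which leaves 16.7% called beside 2.7% of all genes. Very bright milk protein genes in it barely differed, such as Csn2 (mean 13.85 in both strains) and Wap (14.2 in both). A flat mean therefore does not show equal epithelial content. Other cell types were also present, with 5 of 7 myoepithelial, 6 of 7 adipocyte, 6 of 7 fibroblast, 3 of 8 endothelial and 6 of 10 leukocyte markers above the minimum.

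Of the 10 genes, 6 had their probeset above the minimum, namely Jund, Junb, Fos, Fosl2, Egr1 and Ier2. Jund was called lower in QSi5 glands, which made 1 of the 6 probesets, and 1.51% of all 11412 tested probesets were called in that direction and 2.94% in either. The other 5 were not called, and neither were the 6 probesets of Jun, Fosl1, Fosb and Atf3 below the minimum in a fit of all 22626 probesets, where 1.48% were called. Of the 12 probesets, 10 had a lower mean in QSi5 and 2 a higher one, which is a count of means and not of calls. Jun and Fosl1 enter it with 2 probesets each. Beside it, 3616 of the 7361 tested genes, each by its brightest probeset, had a lower mean in QSi5. At an unadjusted p under 0.05 (limma) there were 3 of the 6 tested members (Jund, Fos and Ier2) and 1725 of all 11412 tested probesets. Below the minimum both Jun probesets were under it, with no count over all probesets beside them.

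**Figure D1:**
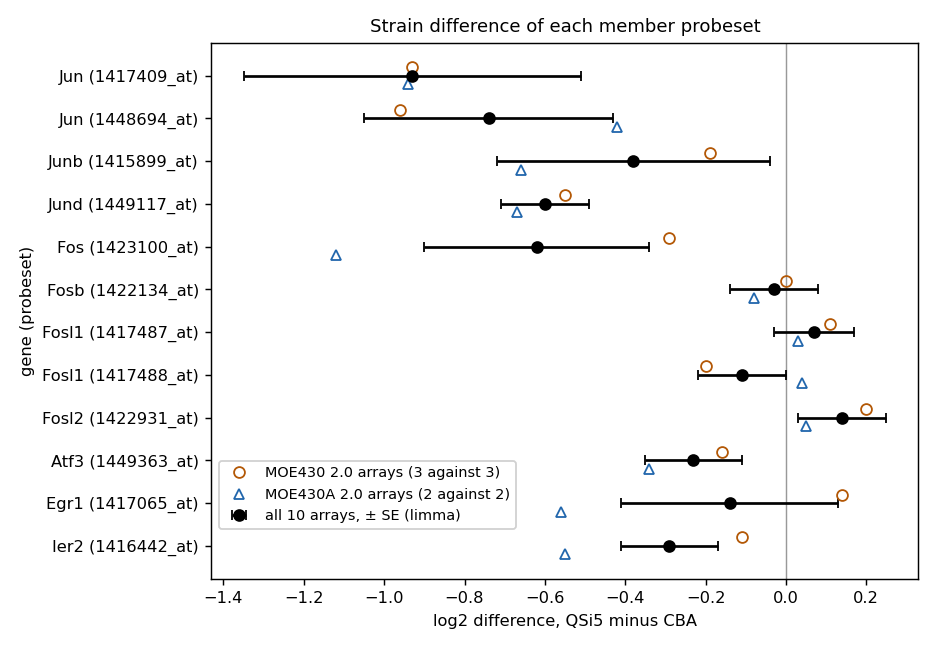
Strain difference of each probeset (horizontal axis, log2 difference QSi5 minus CBA; vertical axis, gene and probeset), with filled points for all 10 arrays ± SE and open symbols for each chip type alone. Jund at -0.60 has a short error bar and similar values on both chip types, whereas Fos lay at -0.29 on MOE430 2.0 and at -1.12 on MOE430A 2.0.

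The bases just upstream of the annotated starts are shown for the member that was called and for the 4 whose levels were high in the same CBA mice. They are 150 bases before the start, 5′ to 3′ on the coding strand, from RefSeq for GRCm38.p6, an assembly of C57BL/6J and neither of the strains studied. Capitals mark 2 motifs, the 8-base palindrome TGANNTCA that holds the CRE-like AP-1 sites, and TGACG, the core of a cAMP response element (CRE), which in Atf3 lies on the opposite strand and so reads CGTCA.
Jund: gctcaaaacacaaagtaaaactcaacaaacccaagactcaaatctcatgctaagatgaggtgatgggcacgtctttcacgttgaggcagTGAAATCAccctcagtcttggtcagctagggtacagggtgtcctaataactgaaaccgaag
Jun: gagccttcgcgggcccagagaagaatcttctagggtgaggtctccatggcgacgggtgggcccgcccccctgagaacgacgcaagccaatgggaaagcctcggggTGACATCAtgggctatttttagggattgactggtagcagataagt
Fos: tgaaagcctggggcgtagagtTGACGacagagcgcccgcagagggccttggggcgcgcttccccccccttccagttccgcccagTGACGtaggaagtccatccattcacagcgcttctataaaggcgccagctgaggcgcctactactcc
Junb: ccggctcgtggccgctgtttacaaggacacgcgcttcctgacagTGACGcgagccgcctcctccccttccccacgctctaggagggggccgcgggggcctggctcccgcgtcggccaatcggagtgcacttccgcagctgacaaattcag
Atf3: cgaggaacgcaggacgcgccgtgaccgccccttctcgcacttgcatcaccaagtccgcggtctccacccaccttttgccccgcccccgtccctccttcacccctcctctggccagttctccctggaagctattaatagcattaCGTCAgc
The windows lie at chr8:70697589-70697738 (plus strand) for Jund, chr4:95052223-95052372 (minus strand) for Jun, chr12:85473740-85473889 (plus strand) for Fos, chr8:84978749-84978898 (minus strand) for Junb and chr1:191183334-191183483 (minus strand) for Atf3.

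Motifs were searched on both strands in windows of 300 bases, 250 before and 50 after the start, for the 7 members with an entry in that table (Jun, Junb, Jund, Fos, Fosb, Fosl2 and Atf3). TGANNTCA was found in 2 of the 7, Jund and Jun, against 14.1% of 32851 promoters. The match in Jund, TGAAATCA, began 61 bases before the start, and that in Jun, TGACATCA, began 45 bases before it. Jun also held TGAGCTCA from base 3 of the transcript. TGACG was found in 4 of the 7, against 20.8% of all promoters, at 129 and 66 bases before the start of Fos, 106 before that of Junb, 60 before that of Fosb and 7 before that of Atf3. The full CRE TGACGTCA, which holds the core and is a case of TGANNTCA, was in 0 of the 7 and in 1.79% of all promoters. The 7-base AP-1 site TGANTCA was in 0 of the 7 and in 7.81% of all, and the CArG box of serum response factor in 0 of the 7 and 1.63% of all. A match describes letters in the reference and is not a measured site. A count of 0 holds only for these windows. It says nothing of sites further upstream, or of Fosl1, Egr1 and Ier2, which had no entry.

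Among the Jun proteins, Jund (1449117_at, chromosome 8) had log2 levels of 9.52, 9.19, 9.28, 9.31 and 9.41 in QSi5 replicates 1 to 5, against 10.05, 9.89, 10.15, 9.74 and 9.85 in CBA replicates 1 to 5. Every QSi5 mouse lay below every CBA mouse, a pattern that 2.63% of tested probesets shared. The means were 9.34 ± 0.13 in QSi5 and 9.94 ± 0.17 in CBA (SD, n = 5 each), and the difference of -0.60 (SE 0.11, limma, BH adjusted p = 0.00985) was a ratio of 0.662, or 648 against 979 on the unlogged scale. Its spread within strains was small, with a pooled SD of 0.15 at the 17.0th percentile of tested probesets, whose median was 0.22. With MOE430 2.0 alone it was -0.55 (adjusted p = 0.103) and with MOE430A 2.0 alone -0.67 (adjusted p = 0.341), so that neither chip type gave a call on its own. Without CBA replicates 1 and 2, a choice made after seeing the data, it was -0.57 and also not called (adjusted p = 0.0769).

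Jun encodes c-Jun, the subunit that gives AP-1 its strongest activation and that JNK kinases phosphorylate. Its probeset 1417409_at (chromosome 4) had levels of 2.63, 2.71, 2.70, 2.57 and 2.57 in QSi5 mice, against 5.08, 4.48, 2.75, 2.85 and 2.68 in CBA mice. By far the highest were CBA replicates 1 and 2, and CBA replicate 5 lay within the range of the QSi5 mice. The difference of -0.93 (SE 0.42) did not pass (limma without a minimum, unadjusted p = 0.0471, BH adjusted p = 0.438), and it was -0.13 without those 2 mice. The second Jun probeset, 1448694_at, had 3.40, 3.52, 3.31, 3.21 and 3.06 in QSi5 mice, against 5.39, 4.17, 3.59, 3.64 and 3.44 in CBA mice. CBA replicates 1 and 2 were again the 2 highest, and 4 of the 5 CBA mice lay above the highest QSi5 mouse. Its difference of -0.74 (SE 0.31) did not pass either (unadjusted p = 0.0332, adjusted p = 0.385), and it was -0.25 without CBA replicates 1 and 2. Both probesets lay below the intensity minimum in both strains.

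Junb, a Jun protein that often restrains c-Jun, had the widest spread among the 6 tested members. Its probeset 1415899_at (chromosome 8) gave 4.06, 4.53, 4.21, 4.88 and 4.44 in QSi5 mice, against 5.99, 5.33, 4.57, 4.01 and 4.10 in CBA mice. The 2 highest mice were CBA replicates 1 and 2 and the lowest was CBA replicate 4, so the QSi5 values lay inside the CBA range. The difference was -0.38 (SE 0.34, adjusted p = 0.660) with a pooled within-strain SD of 0.64, at the 97.6th percentile of tested probesets. Without CBA replicates 1 and 2 the difference changed sign to 0.20 (adjusted p = 0.753).

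**Figure D2:**
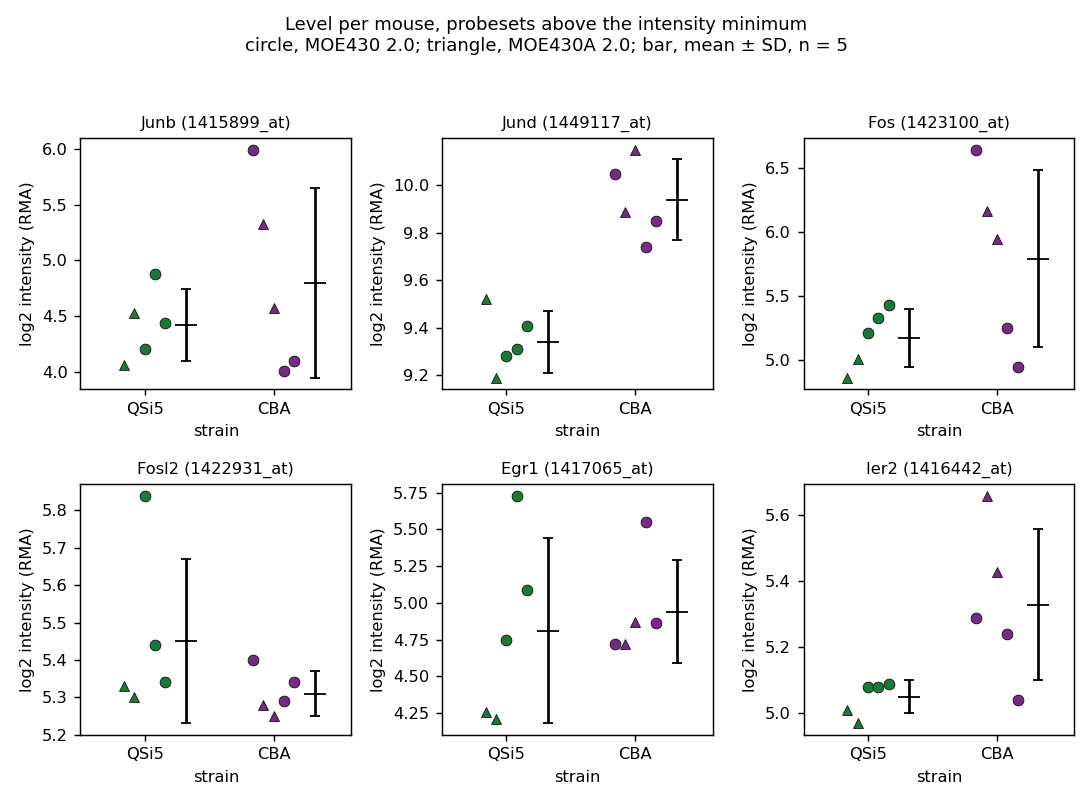
Log2 RMA intensity (vertical axis) of each mouse by strain (horizontal axis) for the 6 tested members, with circles for MOE430 2.0, triangles for MOE430A 2.0 and bars for the mean ± SD of 5 mice. The strains separate for Jund, and for Junb and Fos the QSi5 mice lie closer together (SD 0.32 and 0.23) than the CBA mice (SD 0.85 and 0.69).

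Among the Fos proteins, which cannot pair with themselves and need a Jun partner, Fos is the classical immediate early gene. Its probeset 1423100_at (chromosome 12) gave 4.86, 5.01, 5.21, 5.33 and 5.43 in QSi5 mice, against 6.64, 6.16, 5.94, 5.25 and 4.94 in CBA mice. CBA replicates 1, 2 and 3 lay above every QSi5 mouse, and CBA replicates 4 and 5 lay within the QSi5 range. The means of 5.17 ± 0.23 in QSi5 and 5.79 ± 0.69 in CBA differed by -0.62 (SE 0.28, unadjusted p = 0.0449, BH adjusted p = 0.318), close in size to the difference of Jund but with a within-strain SD of 0.51 (94.9th percentile). Over the alternatives in processing its adjusted p stayed between 0.108 and 0.852. The difference was -0.21 without CBA replicates 1 and 2 (adjusted p = 0.762).

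Fosl2 encodes Fra-2, a Fos protein without the strong activation domain of c-Fos. Its levels (1422931_at, chromosome 5) were 5.33, 5.30, 5.84, 5.44 and 5.34 in QSi5 mice, against 5.40, 5.28, 5.25, 5.29 and 5.34 in CBA mice. QSi5 replicate 3 was highest and the remaining mice overlapped, with a difference of 0.14 (SE 0.11, adjusted p = 0.630) that was 0.04 without that mouse. It was 1 of the 2 probesets with a higher mean in QSi5. The other was Fosl1 1417487_at (chromosome 19), for Fra-1, with 4.12, 4.21, 4.46, 4.43 and 4.03 in QSi5 mice, against 4.13, 4.10, 4.17, 4.18 and 4.30 in CBA mice, where the strains differed by 0.07 (SE 0.10, adjusted p = 0.848). The second Fosl1 probeset, 1417488_at, lay between 2.85 and 3.36 in QSi5 mice and between 3.03 and 3.39 in CBA mice, and differed by -0.11 (SE 0.11, adjusted p = 0.802). Fosb (1422134_at, chromosome 7), a close relative of Fos, lay between 3.67 and 4.11 in QSi5 mice and between 3.76 and 4.14 in CBA mice, and differed by -0.03 (SE 0.11, adjusted p = 0.954). For Fosb and Fosl1, all below the minimum, the strains overlapped and CBA replicates 1 and 2 were not the 2 highest.

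Atf3, a stress-induced member of the ATF family that can pair with Jun proteins, also lay below the minimum. Its levels (1449363_at, chromosome 1) were 2.75, 2.77, 2.94, 3.00 and 2.79 in QSi5 mice, against 3.41, 3.30, 2.91, 2.92 and 2.87 in CBA mice. In CBA replicates 1 and 2 it was above every other mouse, and the other 3 CBA mice lay within the QSi5 range. The difference of -0.23 (SE 0.12, adjusted p = 0.521) was -0.05 without those 2 mice.

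**Figure D3:**
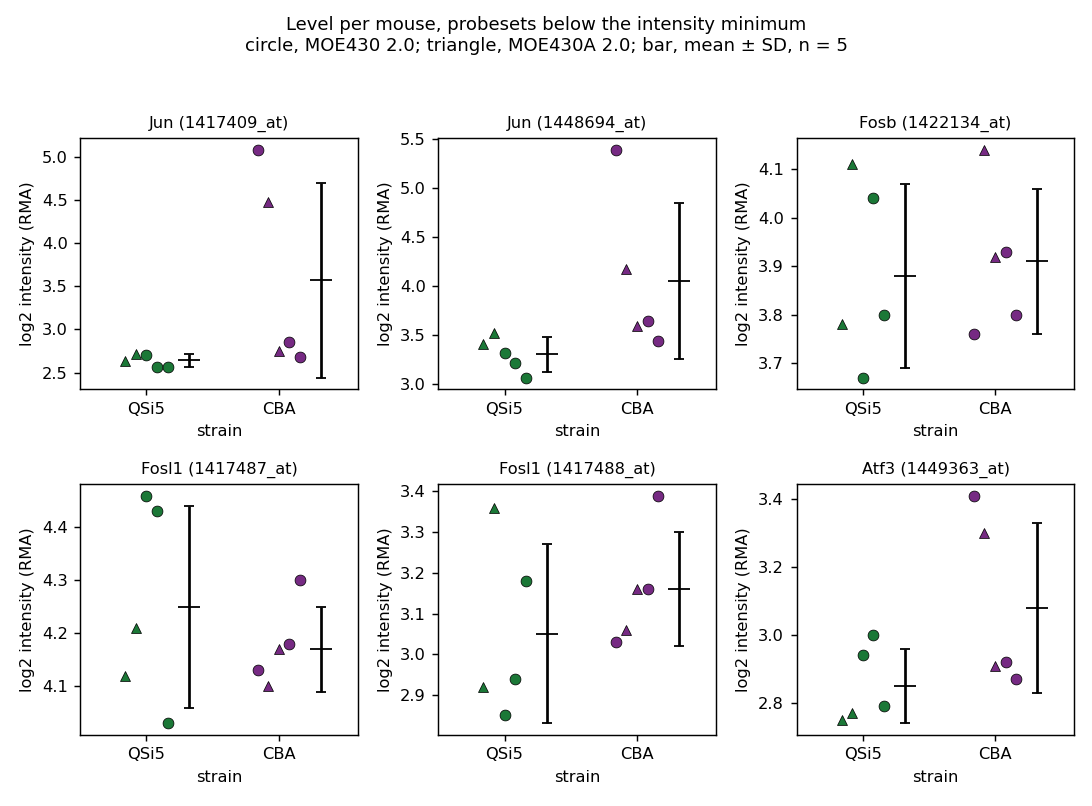
Log2 RMA intensity (vertical axis) of each mouse by strain (horizontal axis) for the 6 probesets below the intensity minimum, with circles for MOE430 2.0, triangles for MOE430A 2.0 and bars for the mean ± SD of 5 mice. For Jun and Atf3 the points of CBA replicates 1 and 2 stand above the rest, and for Fosb and Fosl1 the strains overlap.

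Ier2 encodes a small nuclear protein induced with the Fos and Jun genes. Its probeset 1416442_at (chromosome 8) gave 5.01, 4.97, 5.08, 5.08 and 5.09 in QSi5 mice, against 5.29, 5.66, 5.43, 5.24 and 5.04 in CBA mice. The QSi5 mice lay within 0.11 of each other, 4 of the 5 CBA mice lay above all of them and CBA replicate 5 lay among them. The difference of -0.29 (SE 0.12, unadjusted p = 0.0301) did not pass the adjustment (adjusted p = 0.264), with -0.11 on MOE430 2.0 and -0.55 on MOE430A 2.0.

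Egr1, a zinc finger factor induced through serum response factor, followed another order of mice. Its probeset 1417065_at (chromosome 18) gave 4.26, 4.21, 4.75, 5.73 and 5.09 in QSi5 mice, against 4.72, 4.72, 4.87, 5.55 and 4.86 in CBA mice. QSi5 replicate 4 and CBA replicate 4 were the 2 highest, CBA replicates 1 and 2 were among the lower mice, and the strains overlapped. The difference was -0.14 (SE 0.27, adjusted p = 0.868), with 0.14 on MOE430 2.0 and -0.56 on MOE430A 2.0. In QSi5 replicate 4 the 6 leukocyte markers above the minimum averaged 1.57 above their mean over all mice. That average rested mainly on Ptprc, Cd52 and Lyz2, whereas Adgre1 was not raised in that mouse. In the other 9 mice the average lay from -0.40 to 0.40, with -0.24 in CBA replicate 4. The part of leukocytes in the Egr1 level was not tested.

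The members fell into sets by which mice were high, as the plot of levels relative to the mean of 10 mice shows. CBA replicates 1 and 2 held the 2 highest values for 5 of the 12 probesets (41.7%), namely both Jun probesets, Junb, Fos and Atf3. Among all 22626 probesets 632 had these 2 mice highest (2.79%), and since the pair was noticed on the members these shares are a description with no test. The pair was split between the chip types, CBA replicate 1 being on MOE430 2.0 and CBA replicate 2 on MOE430A 2.0.

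**Figure D4:**
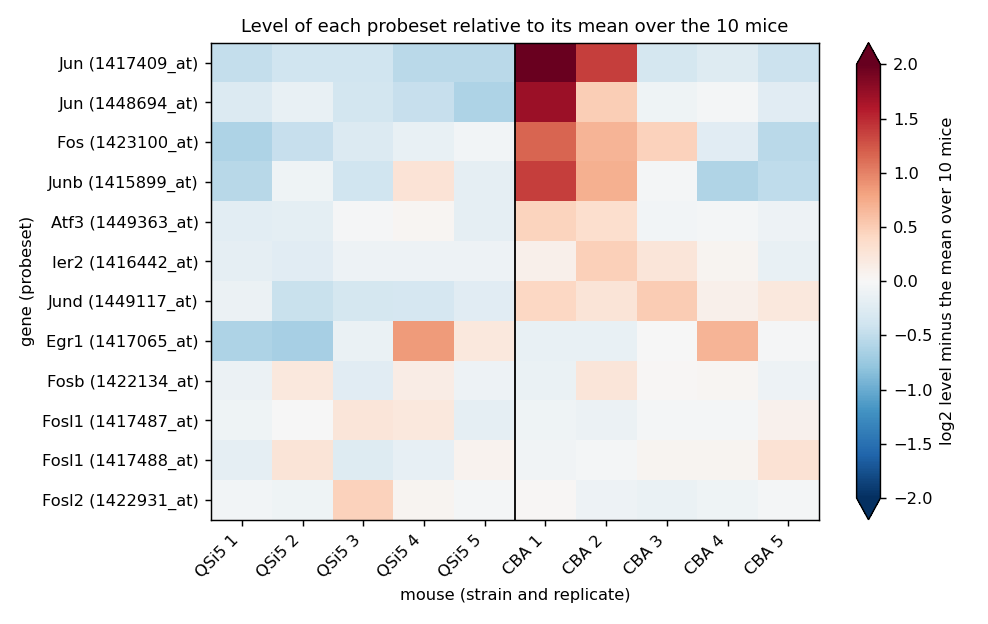
Log2 level of each probeset (rows) in each mouse (columns) minus its mean over the 10 mice, from blue (lower) to red (higher), with colours cut at -2 and 2. CBA replicates 1 and 2 are red for both Jun probesets, Fos and Junb, all 5 CBA mice are red for Jund, and Egr1 is reddest in QSi5 replicate 4 and CBA replicate 4.

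The same view was taken of 30 other immediate early genes that passed the minimum of 45 measured, each by its brightest probeset. None was called (limma, 0 higher and 0 lower, 30 not called), where 2.7% of all 7361 genes were called, and their median difference was -0.16 beside 0.00 for all genes. Without CBA replicates 1 and 2 the median was -0.05, over 29 genes. Their mean level relative to all mice was -0.12, -0.02, -0.08, -0.11 and -0.13 in QSi5 replicates 1 to 5, against 0.38, 0.13, 0.18, -0.08 and -0.14 in CBA replicates 1 to 5. CBA replicates 1, 2 and 3 were above all QSi5 mice, and CBA replicates 4 and 5 were not. Ccn2, Myc and Hbegf passed the intensity minimum only through CBA mice, and Nr4a2 only through QSi5 mice. The minimum thus has a part in the median, in these means and, through Ccn2, in the count that follows. For 10 of the 30 genes CBA replicates 1 and 2 were the 2 highest mice (33.3%), with 278 of all 7361 genes (3.78%) beside them. These were Ier3, Ier5, Klf6, Btg1, Btg2, Zfp36l1, Zfp36l2, Ccn2, Mcl1 and Tiparp, named after their values were seen.

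Of these, Ier3, an early response gene linked to cell survival, had 5.02, 4.93, 5.20, 4.82 and 5.0 in QSi5 mice, against 7.01, 5.97, 5.16, 5.80 and 4.68 in CBA mice (difference -0.73, SE 0.34, adjusted p = 0.332). Klf6, a zinc finger factor, had 5.54, 5.77, 5.81, 5.74 and 5.86 in QSi5 mice, against 7.45, 6.04, 5.67, 5.70 and 5.43 in CBA mice (difference -0.31, SE 0.31, adjusted p = 0.695). CBA replicate 1 was well above the rest for both genes, and the other CBA mice lay on both sides of the QSi5 mice. Without CBA replicates 1 and 2 the difference was -0.22 for Ier3 and 0.14, of opposite sign, for Klf6. Ccn2, which encodes connective tissue growth factor, had 2.44, 3.50, 2.57, 2.89 and 2.72 in QSi5 mice, against 5.17, 5.59, 5.01, 3.07 and 3.64 in CBA mice (difference -1.67, SE 0.43, adjusted p = 0.0636). Its strains overlapped through QSi5 replicate 2 and CBA replicate 4, and it passed the intensity minimum only through the CBA mice, the QSi5 mean of 2.82 being below it. Mcl1, an antiapoptotic relative of Bcl2, had 7.33, 7.24, 6.98, 7.32 and 7.18 in QSi5 mice, against 8.17, 7.81, 7.72, 7.50 and 7.40 in CBA mice (difference -0.51, SE 0.14, adjusted p = 0.0966). Every QSi5 mouse lay below every CBA mouse for Mcl1, though it was not called.

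The leucine zipper partners and relatives of AP-1 (ATF, CREB, C/EBP, MAF and NFE2 families) had 27 genes tested of 32 measured, with 0 called and a median difference of -0.23. Their mean level was -0.04, -0.02, -0.17, -0.20 and -0.14 in QSi5 mice, against 0.14, 0.13, 0.31, -0.05 and 0.04 in CBA mice, and CBA replicate 3 was highest. Nfil3 among them passed the intensity minimum only through CBA mice. Kinases and serum response factors that act upstream of AP-1, with their cofactors, had 23 tested of 29 measured, with 0 higher, 1 lower and 22 not called and a median of -0.04. That is 4.35% called, near the 2.7% of all genes, and no result about the list. The 1 lower in QSi5 was Rps6ka3, for the ERK-activated kinase RSK2, with 5.62, 5.53, 5.04, 5.40 and 5.34 in QSi5 mice, against 6.32, 6.12, 6.34, 5.71 and 5.80 in CBA mice. Its strains did not overlap, and the difference was -0.67 (SE 0.15, adjusted p = 0.0375), or -0.56 without CBA replicates 1 and 2 (adjusted p = 0.205).

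Genes known as AP-1 targets had 17 tested of 34 measured, with 0 higher, 3 lower in QSi5 and 14 not called, a share of 17.6% called beside 2.7% of all genes, and a median difference of -0.12. The 3 were Mt1 and Mt2, for metallothioneins that bind zinc and also respond to metals and glucocorticoids, and Timp1, for an inhibitor of matrix metalloproteinases. The list was written with earlier results of these data known, and Mt1 and Mt2 are related genes. Its share of calls is therefore a description with no test. Mt1 had 9.72, 11.28, 9.28, 8.83 and 9.41 in QSi5 mice, against 12.63, 11.99, 12.26, 11.28 and 11.26 in CBA mice (difference -2.18, SE 0.41, adjusted p = 0.0129). QSi5 replicate 2 lay among the CBA mice, and the other QSi5 mice were below all of them. The Mt1 probeset has the suffix _s_at, which marks probes shared by several transcripts, so that its signal may include relatives. Mt2 had 5.42, 9.18, 4.81, 4.83 and 5.73 in QSi5 mice, against 10.76, 10.20, 10.87, 7.81 and 9.10 in CBA mice (difference -3.75, SE 0.82, adjusted p = 0.0280). The order was alike for Mt2, with QSi5 replicate 2 among the CBA mice. Timp1 had 5.88, 5.91, 5.84, 5.90 and 5.76 in QSi5 mice, against 6.89, 6.47, 6.47, 6.38 and 6.21 in CBA mice (difference -0.63, SE 0.12, adjusted p = 0.0143), with no overlap. Without CBA replicates 1 and 2 the adjusted p was 0.0948 for Mt1, 0.163 for Mt2 and 0.0648 for Timp1, so 0 of the 17 were called. Among the 17, S100a8 passed the intensity minimum only through CBA mice and was not called.

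The 16 tested genes of early involution and the acute phase, of 19 measured, had a mean level of -0.28, -0.28, -0.66, -1.08 and -0.96 in QSi5 mice, against 1.41, 0.79, 1.62, -0.33 and -0.23 in CBA mice. Saa2 among them passed the intensity minimum only through CBA mice. In that mean CBA replicates 1, 2 and 3 were the highest, as they were for Fos. It averages log2 levels without scaling, so that genes of wide range weigh most. Saa1, Saa2 and Saa3 stood at 13.2, 13.11 and 13.05 in CBA replicate 3, against QSi5 means of 5.52, 3.85 and 5.14. Of the 16, 0 were called higher in QSi5, 3 lower (the acute phase genes Saa1, Orm1 and Saa3) and 13 were not called. That is a share of 18.8% beside 2.7% of all genes. That share is a description with no test, since earlier results of these data were known when the list was written, and Saa1 and Saa3 are related genes. Without CBA replicates 1 and 2, 0 were lower and 1 was higher (Lbp, for a binding protein of bacterial lipopolysaccharide, adjusted p = 0.0134). Stat3, which drives the early phase of involution in mice, had 7.41, 7.94, 7.39, 7.56 and 7.51 in QSi5 mice, against 9.46, 8.37, 7.92, 7.10 and 7.18 in CBA mice (difference -0.44, SE 0.37, adjusted p = 0.636). Igfbp5, a binding protein of insulin-like growth factors that is known to be induced in involution, had 5.80, 6.12, 5.82, 5.47 and 5.63 in QSi5 mice, against 10.10, 8.14, 8.05, 5.77 and 6.40 in CBA mice (difference -1.92, SE 0.63, adjusted p = 0.152). CBA replicates 1 and 2 were the 2 highest for both genes, which were named after their values were seen. Without that pair the difference was 0.16, of opposite sign, for Stat3 and -0.97 for Igfbp5. The 8 tested heat shock genes, of 9 measured, had 0 called and a median difference of -0.55, with levels from -0.47 to 0.21 in QSi5 mice and from 0.04 to 0.36 in CBA mice. The 5 tested myoepithelial markers averaged 0.58 in CBA replicate 1 and 0.28 in CBA replicate 2, and 0.51 in QSi5 replicate 2. The 3 tested endothelial markers averaged 0.16 in CBA replicate 1 and 0.30 in CBA replicate 2, the 2 highest mice, and from -0.30 to 0.08 in the others, and 2 of the 3 (66.7%) had that pair highest. Those 2, Cdh5 and Cldn5, passed the intensity minimum only through CBA mice, so that the minimum has a part in this share and these means. Without that pair of mice only 1 endothelial marker was tested. The part of weaning, acute phase, handling or myoepithelial and endothelial content in the levels of the members was not tested.

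The genes whose deviations from the strain mean were most like those of Jund, Junb and Fos over the 10 mice were found among all tested genes, and the correlations are descriptions of the closest genes, picked for their closeness. For Jund they were Slc7a5 (Pearson r = 0.93, Spearman rho = 0.92), an amino acid transporter, Wnk1 (0.92 and 0.83), a kinase, and Slc39a1 (0.92 and 0.90), a zinc transporter. Slc7a5 was itself called lower in QSi5 (difference -0.90, adjusted p = 0.0297), whereas Wnk1 had a difference of 0.28 (adjusted p = 0.215) and Slc39a1 of 0.31 (adjusted p = 0.165). For Junb they were Lpcat1 (0.97 and 0.96), Rest (0.97 and 0.94) and Cnn3 (0.95 and 0.98), with differences of -0.48, -0.10 and -0.93 that were not called (adjusted p = 0.601, 0.803 and 0.174). For Fos they were Yeats4 (0.94 and 0.89), Hmgb3 (0.93 and 0.88) and Sesn3 (0.93 and 0.87), with differences of -0.09, -0.43 and 0.17 that were not called (adjusted p = 0.851, 0.485 and 0.639). No gene was among the 3 closest of more than 1 member.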

How the data were processed

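Mammary RNA taken at lactation day 9 from 5 mice of QSi5 and 5 of CBA was hybridised to Affymetrix MOE430 2.0 and MOE430A 2.0 chips, 1 array per mouse, and strains were taken from the sample records. The deposited values are log2 intensities that the authors made with RMA in the affy package, both chip types normalized together on 22690 shared probesets, and versions are not given in the sources used here. Quantile normalization can hide a shift shared by all genes. The 2 value tables were read together, 64 control probesets were set aside, and 0 columns belonged to another series. The platform annotation gave 1 symbol for 20380 probesets, several for 691 and none for 1555, and 20351 were matched by Entrez identifier to RefSeq genes.

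As in the methods, probesets above 20 (antilog of the mean log2 value) in at least 1 strain were kept, and limma 3.58.1 in R 4.3.3 (lmFit, eBayes, two-sided) was fitted over them with BH adjustment. Members below the minimum were taken from a fit of all probesets. The fit was first tested on simulated data, where it recovered 23 of 50 changes of 0.5 on the log2 scale and 43 of 50 changes of 1. There 14 of 179 calls were false. A difference near 0.5 can thus go uncalled. The number of arrays limits the precision. The members, gene lists and tests were chosen with earlier results of these data known, and the lists were written from general knowledge. All 10 members are named, of each list other than markers up to 4 called genes, and for Jund and the 2 tested members of widest spread the 3 genes most like them. Other named genes were chosen after their values were seen.

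Alternatives changed the intensity minimum (none, or 50), the normalization (a second quantile step, or median centring), the probesets (suffix _x_at and _s_at left out), the chip type (as a block, or each alone), a replicate block, an intensity trend, array weights, and each mouse in turn. The equal replicate numbers of the strains were not treated as pairs of mice in the main fit. Genes without a single-symbol probeset are not analysed here.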

Additional observations from a re-analysis of the deposited data

Results flagged for a closer look

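Among 24 groups examined (12 probesets in each strain), 2 held a mouse whose gap to its nearest neighbour took more than 0.71 of the group's range, where chance gives about 1 in 20 groups. For Fosl2 in QSi5 mice it was replicate 3, at 5.84 against 5.44 for the next mouse, with a ratio of gap to range of 0.737. For Egr1 in CBA mice it was replicate 4, at 5.55 against 4.87 for the next mouse, with a ratio of 0.825.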

How the results depend on the processing

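Under 22 alternatives Jund kept its direction in all and its call in 19. It was not called on the MOE430 2.0 arrays alone (-0.55), on the MOE430A 2.0 arrays alone (-0.67) or without CBA replicates 1 and 2 (-0.57). In these 3 settings 0 members were called. Each leaves fewer mice, and whether their number or the choice of mice lost the call was not tested. All probesets called were 336 with all mice, and 146, 65 and 187 under these 3 settings. With 1 mouse left out they lay between 215 (without QSi5 replicate 3) and 415 (without CBA replicate 4), with 221 without QSi5 replicate 5. No other member passed under any alternative. Some differences that were not called changed sign, and the cause was not tested. On the MOE430 2.0 arrays alone Egr1 was at 0.14 and Fosb at 0.00, and with 1 mouse left out Egr1 ranged from -0.37 to 0.01 and Fosb from -0.09 to 0.03. Fosl1 1417488_at was at 0.04 on the MOE430A 2.0 arrays alone, and Junb at 0.20 without CBA replicates 1 and 2. With the replicate number as a block, which the correlations of same-numbered mice (-0.37 to 0.29) do not show to be a pairing, Jund stayed at -0.60 (adjusted p = 0.0411) and 260 probesets were called. With chip type as a block, 413 probesets were called in all, more than the 336 without it. Under that setting Hlf among the AP-1 relatives (-1.30, adjusted p = 0.0235) was also called lower in QSi5. So were Hspa1b (-0.87, 0.0105) and Bag3 (-0.59, 0.0265) among the heat shock genes and the adipocyte marker Fabp4 (-0.73, 0.0383). The milk protein gene Lalba (0.40, 0.0405) was called higher. Fabp4 was the only 1 called of the 6 tested adipocyte markers, whose median difference in the main fit was 0.01, with 3 below 0. The 12 milk protein and epithelial markers, Lalba among them, had a median of 0.01 there, with 5 below 0. Ccn2 (-1.67, 0.0345) and Saa2 (-4.67, 0.0165) were called lower as well, though both passed the intensity minimum only through CBA mice. The minimum of 50 left out the dimmer members. Signals close to background limit Jun, Fosb, Fosl1 and Atf3.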
